A study of Mus musculus with 8 samples.

Results

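The 37 genes described here are those of the mitochondrial genome, chosen as every gene whose name in the deposited table starts with mt-. They comprise 13 protein genes, 2 ribosomal RNA (rRNA) genes and 22 transfer RNA (tRNA) genes, out of 49585 genes listed. They were measured by RNA sequencing in brachiocephalic arteries of ApoE-deficient mice, which carried plaques after a high-fat diet begun at 12 weeks of age. The treated group of 4 samples received a Dll1 blocking antibody, clone HMD1-5, which is directed against a ligand of the Notch receptors. The control group of 4 samples received non-immune IgG. Both were injected intraperitoneally at 250 micrograms, 2 times a week. ApoE deficiency and diet were thus shared by all samples, and the series has no untreated mice. Whether each sample is its own animal is not in the labels, so the p-values reflect spread among samples that could be partly technical.

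Mitochondrial DNA is a small circle that is transcribed from both strands into long precursors. In most of the circle the tRNA sequences lie between the rRNA and protein genes, and cutting them out releases the rRNAs, the mRNAs and the tRNAs. The 13 proteins are subunits of respiratory complexes I, III and IV and of ATP synthase (complex V), while the rRNAs and tRNAs serve the mitochondrial ribosome. All other proteins of the organelle, including the RNA polymerase and the tRNA synthetases, come from nuclear genes.

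The 8 libraries fell into sets of 4, named 076 and 045 in the column names, whose meaning was not given in the sources used here. Set 076 held antibody libraries D1IA and D2IA and IgG libraries G1IA and G2IA. Set 045 held a different pair of antibody libraries, also named D1IA and D2IA, and IgG libraries C1IA and C2IA. Depth was 11062659 to 13816385 reads per library, recovered from the steps of the TPM values (a share of transcripts adjusted for gene length, summing to 1000000 in each library). The nuclear protein-coding share of TPM was 21.2% to 24.2% in set 076 but 0.848% to 3.10% in set 045. The 7SL RNA gene Rn7s1 accounted for 31.4% to 43.0% in set 076 but 62.7% to 72.8% in set 045. Because of this gap, levels are also given as protein-coding-scaled TPM, in which the nuclear protein-coding genes of each library sum to 1000000. Summed smooth muscle markers (5 genes, none at 0 in any library) lay at 3497 to 4524 on that scale in set 076 and at 522 to 934 in set 045.

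Mitochondrial RNA made up a large share of every library. The 37 genes summed to 34.3% of all TPM in D1IA and 22.2% in D2IA (antibody, set 076), against 18.9% in G1IA and 34.0% in G2IA (IgG, set 076). Each treatment thus had 1 library near 34% and 1 lower library, and the antibody and IgG ranges overlapped. In set 045 the sums were 20.8% in D1IA and 15.3% in D2IA (antibody), against 8.42% in C1IA and 16.04% in C2IA (IgG). The IgG library C1IA was the lowest of the 8 on TPM, and the groups again overlapped. Averaged within sets, the share was 27.3% ± 7.99 in set 076 and 15.1% ± 5.10 in set 045 (SD, n = 4 each).

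Counted in recovered reads, which are not divided by gene length, the direction between the sets turned. The 37 genes drew 26.7% ± 8.12 of reads in set 076 and 38.1% ± 11.17 in set 045 (SD, n = 4 each). By library the share of reads was 34.2% in D1IA and 20.3% in D2IA (antibody, set 076), against 19.0% in G1IA and 33.1% in G2IA (IgG, set 076). In set 045 it was 51.9% in D1IA and 39.1% in D2IA (antibody), against 24.7% in C1IA and 36.9% in C2IA (IgG). Antibody and IgG libraries thus overlapped in set 076 and did not in set 045, and the lowest of the 8 on this measure was G1IA.

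The sets also differed in the balance of the classes inside the mitochondrial total. rRNA genes took 62.4% ± 3.42 of mitochondrial TPM in set 076 and 88.4% ± 3.25 in set 045. Protein genes took 36.8% ± 3.41 in set 076 and 11.2% ± 3.22 in set 045. tRNA genes took 0.820% ± 0.0658 in set 076 and 0.359% ± 0.1003 in set 045 (SD, n = 4 each throughout). In none of the 3 classes did the sets overlap: rRNA lay between 58.1% and 66.2% in set 076 and between 84.8% and 91.9% in set 045. These shares are ratios within a library and do not depend on the scaling. Class sums were not tested.

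**Figure D1:**
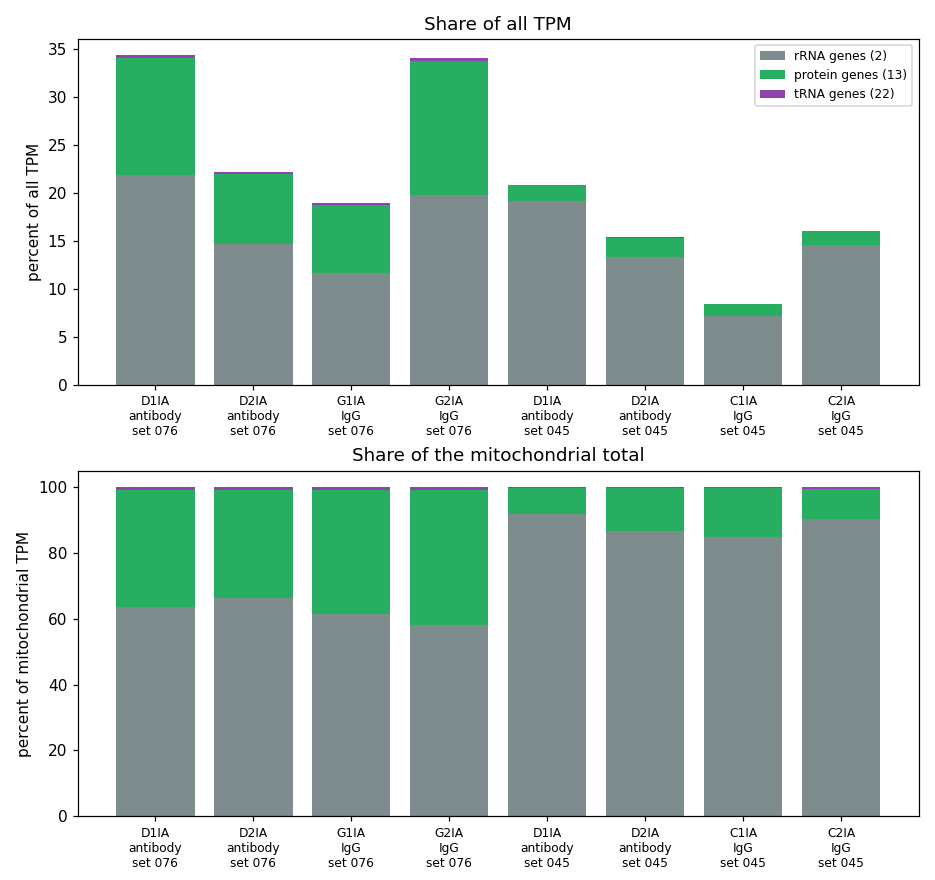
Stacked bars, 1 per library, give the share of rRNA, protein and tRNA genes in all TPM (upper panel, percent) and in the mitochondrial total (lower panel, percent). The grey rRNA part reaches 58.1% to 66.2% of the mitochondrial total in set 076 and 84.8% to 91.9% in set 045, under either treatment.

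Between treatments, the balance moved less than between sets. Per unit of protein-gene TPM, rRNA TPM was 1.79 in D1IA and 2.01 in D2IA (antibody, set 076), against 1.64 in G1IA and 1.42 in G2IA (IgG, set 076). Both antibody libraries of set 076 were thus above both IgG libraries. In set 045 the ratio was 11.6 in D1IA and 6.75 in D2IA (antibody), against 5.70 in C1IA and 9.90 in C2IA (IgG), and the groups overlapped. The antibody and IgG means were 1.90 ± 0.156 and 1.53 ± 0.160 in set 076, and 9.17 ± 3.43 and 7.80 ± 2.96 in set 045 (SD, n = 2 each).

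The rRNA genes were the most abundant members. mt-Rnr1 encodes the 12S rRNA of the small ribosomal subunit and mt-Rnr2 the 16S rRNA of the large one. mt-Rnr2 had 123846 TPM in D1IA and 89866 TPM in D2IA (antibody, set 076), against 72591 TPM in G1IA and 116588 TPM in G2IA (IgG, set 076). In set 045 it had 144226 TPM in D1IA and 94938.5 TPM in D2IA (antibody), against 50432 TPM in C1IA and 98659 TPM in C2IA (IgG). The ranges of antibody and IgG libraries, and those of the sets, overlapped on this scale.

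mt-Rnr1 had 94535.5 TPM in D1IA and 56965 TPM in D2IA (antibody, set 076), against 43613.5 TPM in G1IA and 81204 TPM in G2IA (IgG, set 076). Its set 045 values were 46805 TPM in D1IA and 38104 TPM in D2IA (antibody), against 20900.4 TPM in C1IA and 46303 TPM in C2IA (IgG). The 2 rRNAs did not keep a fixed ratio. mt-Rnr2 was 1.497 ± 0.156 times mt-Rnr1 in set 076 and 2.53 ± 0.399 times in set 045 (SD, n = 4 each). The ratio ran from 1.31 to 1.66 in set 076 and from 2.13 to 3.08 in set 045, with no overlap. rRNA was depleted during library preparation, so these are levels after depletion, and the part depletion had in the ratio was not tested.

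The 13 mRNAs kept nearly the same order in every library. Over these 13 genes, Pearson's r between the mRNA makeups of pairs of libraries, given as a description, was 0.959 to 0.996 within sets and 0.943 to 0.983 between sets. The points share each library's depth and the gene lengths. mt-Co1, the catalytic subunit of complex IV, led with 25.6% of mitochondrial mRNA TPM in D1IA and 24.2% in D2IA (antibody, set 076), against 28.7% in G1IA and 28.1% in G2IA (IgG, set 076). Its share was 22.3% in D1IA and 22.1% in D2IA (antibody, set 045), against 21.1% in C1IA and 20.4% in C2IA (IgG, set 045). Antibody libraries were thus below IgG libraries in set 076 and above them in set 045, without overlap in either set. The complex I gene mt-Nd3 had the reverse pattern, also without overlap. Its antibody shares were 2.33% and 2.44% against 1.81% and 1.92% for IgG in set 076. In set 045 they were 3.35% and 3.22% against 3.49% and 3.72%. These orders, seen among 13 genes with 2 libraries per group, were not tested. No count of such orders over the 13 genes or over all genes was made. The mt-Nd3 pattern is not independent of that of mt-Co1, as both are shares of 1 total.

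mt-Co3, another complex IV core subunit, averaged 15.9% ± 1.31 of mitochondrial mRNA in set 076 and 18.6% ± 0.583 in set 045. mt-Atp6, the proton-channel subunit of ATP synthase, averaged 15.2% ± 0.563 in set 076 and 14.4% ± 0.696 in set 045. mt-Co2, which receives electrons from cytochrome c, averaged 12.3% ± 0.765 in set 076 and 12.6% ± 0.850 in set 045 (SD, n = 4 each throughout). mt-Atp6 and mt-Co2 overlapped between the sets, and mt-Co3 did not.

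The complex III subunit mt-Cytb, cytochrome b, followed with 7.89% ± 0.400 in set 076 and 6.48% ± 0.240 in set 045. The 7 complex I genes together made up 18.3% in D1IA and 23.6% in D2IA (antibody, set 076), against 21.1% in G1IA and 19.2% in G2IA (IgG, set 076). In set 045 they made up 23.1% in D1IA and 23.1% in D2IA (antibody), against 23.1% in C1IA and 26.9% in C2IA (IgG). Of these membrane subunits mt-Nd1 had the highest mean share in set 076 and mt-Nd4 in set 045. mt-Nd1 averaged 5.27% ± 0.209 in set 076 and 4.58% ± 0.261 in set 045, and mt-Nd4 averaged 4.18% ± 0.505 in set 076 and 4.74% ± 0.112 in set 045 (SD, n = 4 each). mt-Nd5 lay at 2.67% to 3.70% in set 076 and at 3.81% to 4.99% in set 045.

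The lowest mRNAs were mt-Nd2, mt-Nd3, mt-Nd4l and mt-Nd6 of complex I and mt-Atp8, the small ATP synthase subunit. Each took 1.06% to 2.77% of mitochondrial mRNA TPM in set 076 and 1.65% to 4.00% in set 045. In the share of mitochondrial mRNA, the sets did not overlap for 7 of the 13 genes. The shares of a library make up a fixed total, so they do not move independently of each other. mt-Nd1, mt-Co1 and mt-Cytb had higher shares in set 076, and mt-Co3, mt-Nd3, mt-Nd5 and mt-Atp8 had lower shares there. Of these 7 the gap was largest in proportion for mt-Nd3, at 2.12% ± 0.309 in set 076 and 3.45% ± 0.214 in set 045 (SD, n = 4 each).

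**Figure D2:**
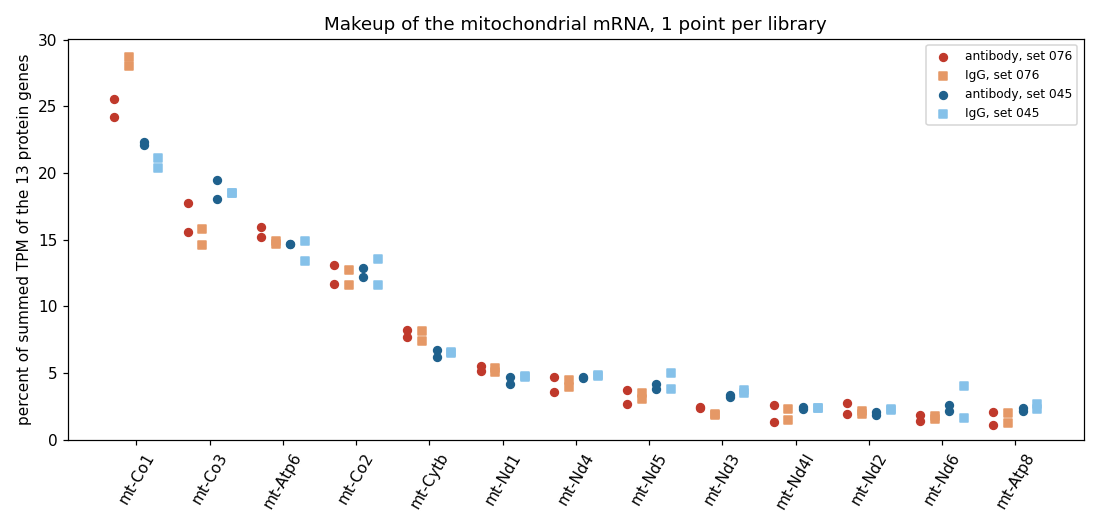
Each point is 1 library's share of the summed TPM of the 13 mitochondrial protein genes (percent, y axis), by gene in falling order of abundance. mt-Co1 lies at 24.2% to 28.7% in set 076 and 20.4% to 22.3% in set 045, while mt-Atp6 and mt-Co2 overlap between the sets.

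Some mRNAs share a transcript, and the partners did not have equal levels. mt-Atp8 and mt-Atp6 overlap by 43 bases and mt-Nd4l and mt-Nd4 by 7 bases in the GENCODE M21 annotation, and each pair is known to be carried on 1 mRNA. mt-Atp8 TPM was 6.66% of mt-Atp6 TPM in D1IA and 13.5% in D2IA (antibody, set 076), against 13.4% in G1IA and 8.19% in G2IA (IgG, set 076). The set 045 values were 14.6% in D1IA and 16.2% in D2IA (antibody), against 15.5% in C1IA and 20.2% in C2IA (IgG). mt-Nd4l TPM was 36.7% and 55.6% of mt-Nd4 TPM in D1IA and D2IA of set 076, against 51.5% and 37.0% in G1IA and G2IA. In both pairs D1IA and G2IA of set 076 were low, and these are the libraries of that set with the highest mitochondrial share. How the authors' counting treated bases shared by 2 genes was not given in the sources used here, so the levels of overlapping genes are uncertain.

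mt-Nd6 is the only protein gene read from the other strand and lies opposite the end of mt-Nd5, with 14 bases of overlap. It had 1708 TPM in D1IA and 1344 TPM in D2IA (antibody, set 076), against 1237 TPM in G1IA and 2155 TPM in G2IA (IgG, set 076). The values in set 045 were 433 TPM in D1IA and 429 TPM in D2IA (antibody), against 207 TPM in C1IA and 586 TPM in C2IA (IgG). As a share of mt-Nd5 TPM it was near constant in set 076, at 52.5% and 49.7% in D1IA and D2IA, against 49.7% and 50.6% in G1IA and G2IA. That share spread further in set 045, with 63.1% in D1IA and 57.2% in D2IA (antibody), against 43.2% in C1IA and 80.1% in C2IA (IgG). The library kit keeps the strand, but whether counting used it was not given in the sources used here.

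The tRNA genes, 59 to 75 bases long, ranged from 1 read in all 8 libraries together to 859 reads in 1 library. They drew 1103 to 2075 reads per library in set 076 and 527 to 1156 in set 045, so counting error weighs more here than for mRNAs. 15 of the 22 had reads in all 8 libraries. The 6 of highest mean TPM were mt-Tp (436 TPM, proline), mt-Ty (292 TPM, tyrosine), mt-Tc (94.8 TPM, cysteine), mt-Ta (91.6 TPM, alanine), mt-Te (87.9 TPM, glutamate) and mt-Tl2 (66.7 TPM, leucine). The first 5 of these are all read from the minus strand of the reference, the strand of 8 tRNA genes and of mt-Nd6, whereas 14 tRNA genes and the other members lie on the plus strand. Minus-strand tRNA genes took 82.6% of tRNA TPM in D1IA and 73.1% in D2IA (antibody, set 076), against 72.4% in G1IA and 80.3% in G2IA (IgG, set 076). The set 045 shares were 77.2% in D1IA and 80.4% in D2IA (antibody), against 70.8% in C1IA and 76.6% in C2IA (IgG).

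The 5 leading tRNA genes are shown first, then the minus-strand gene that stayed near 0 (mt-Ts1, serine) and the plus-strand genes with a single read in all (mt-Tk, lysine, and mt-Td, aspartate). The sequences, 5′ to 3′ in the sense of each gene, are from the GENCODE M21 transcripts of the mitochondrial chromosome (GRCm38 assembly), and capitals mark the anticodon, found as its triplet after a T and before an A or G.
mt-Tp: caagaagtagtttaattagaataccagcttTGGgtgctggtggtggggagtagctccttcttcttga
mt-Ty: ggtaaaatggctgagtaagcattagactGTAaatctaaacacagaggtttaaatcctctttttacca
mt-Tc: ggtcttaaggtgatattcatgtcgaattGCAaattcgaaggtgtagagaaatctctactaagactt
mt-Ta: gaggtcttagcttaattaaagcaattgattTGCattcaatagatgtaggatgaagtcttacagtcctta
mt-Te: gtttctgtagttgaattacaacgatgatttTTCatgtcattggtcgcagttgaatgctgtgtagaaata
mt-Ts1: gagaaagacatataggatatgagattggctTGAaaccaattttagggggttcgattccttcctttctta
mt-Tk: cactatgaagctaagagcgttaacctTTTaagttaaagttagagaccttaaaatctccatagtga
mt-Td: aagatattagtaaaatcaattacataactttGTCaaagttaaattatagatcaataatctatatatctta
G and C make up 44.8% of mt-Tp and 17.1% of mt-Td, while mt-Ts1 (37.7%) and mt-Tk (33.8%) lie within the range of the abundant mt-Ta (33.3%) and mt-Tp. Over the 8 tRNA genes with at most 5 reads in any library the median was 32.4%, and over the other 14 it was 34.3%. The same search pattern for the anticodon occurred in 0 of the other 21 tRNA sequences for mt-Tp and in 7 of them for mt-Ty, so a match by itself names no tRNA.

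mt-Tp, like mt-Co1, was higher in D1IA and G2IA than in the other libraries of set 076. It had 1122 TPM in D1IA and 491 TPM in D2IA (antibody, set 076), against 406 TPM in G1IA and 1086 TPM in G2IA (IgG, set 076). In set 045 it had 101 TPM in D1IA and 129 TPM in D2IA (antibody), against 58.8 TPM in C1IA and 90.2 TPM in C2IA (IgG). Antibody libraries lay above IgG libraries in set 045, and the groups overlapped in set 076.

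mt-Ty varied less within set 076, with 412 TPM in D1IA and 421 TPM in D2IA (antibody), against 358 TPM in G1IA and 444 TPM in G2IA (IgG). Its values in set 045 were 143 TPM in D1IA and 165 TPM in D2IA (antibody), against 93.1 TPM in C1IA and 298 TPM in C2IA (IgG). The leading tRNA thus changed between sets: mt-Tp was 23.7% to 43.5% of tRNA TPM in set 076 and 12.0% to 23.5% in set 045, whereas mt-Ty was 15.9% to 23.3% in set 076 and 29.0% to 39.6% in set 045. C2IA had the lowest mt-Tp share and the highest mt-Ty share of the 8 libraries.

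In TPM, mt-Tc ranged over 130 to 165 in set 076 and 16.2 to 65.1 in set 045. The range of mt-Ta was 112 to 175 in set 076 and 21.4 to 51.4 in set 045, and that of mt-Te was 78.2 to 219 in set 076 and 18.6 to 39.4 in set 045. At the other end, mt-Td had 1 read, in D1IA of set 076, and mt-Tk had 1 read, in D2IA of set 076. mt-Ts1 had 4 reads over the 8 libraries and mt-Tv, the valine tRNA between the rRNA genes, had 7. These levels are not distinguishable between libraries at this depth. Reads on a tRNA gene may come from the mature tRNA or from an unprocessed precursor, and TPM values do not separate them.

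**Figure D3:**
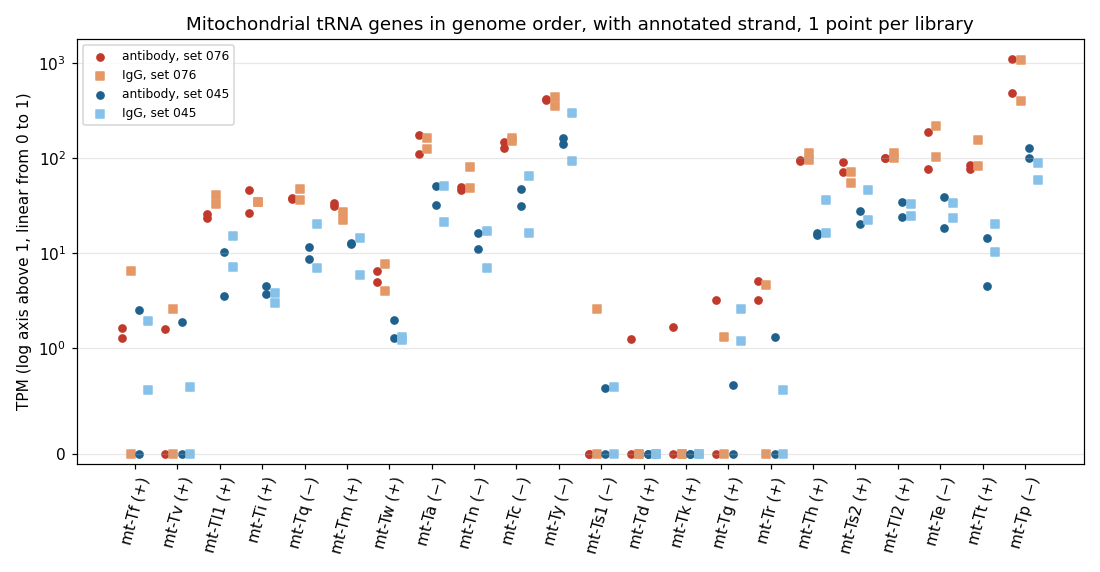
TPM of the 22 mitochondrial tRNA genes in genome order, with the annotated strand in brackets and 1 point per library. The y axis is logarithmic above 1 TPM and linear from 0 to 1. mt-Tp, mt-Ty, mt-Tc, mt-Ta and mt-Te, all on the minus strand, hold the highest mean levels, and mt-Td and mt-Tk are above 0 in 1 library each.

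The effect of the antibody was tested within each set with limma on log2(protein-coding-scaled TPM + 1), for the 18170 genes whose mean was 1 or more. 35 of the 37 members passed that filter, and mt-Td and mt-Tk did not. No member passed an adjusted p of 0.05 in either set, over both sets or in the difference between the sets' effects, under limma or any alternative run. Over all genes, 0.0110% were called in set 076 (2 genes, both lower) and 0% in set 045, over both sets and for the difference. On TPM as deposited the shares of all genes called were 0.680% in set 076, 0% in set 045, 0.462% over both sets and 1.17% for the difference, again with no member. At an unadjusted p under 0.05, limma gave 0 of the 35 members in set 076, 13 in set 045, 1 over both sets and 5 for the difference. Of all 18170 genes, 163, 1452, 495 and 924 did so in the same comparisons. Limma-voom on the recovered reads gave 0, 11, 1 and 2 of 30 members, beside 251, 722, 254 and 780 of 16059 genes.

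In set 076 the mitochondrial levels of the antibody and IgG libraries overlapped for most genes. mt-Co1 had 145176 in D1IA and 73131 in D2IA (antibody), against 90947 in G1IA and 185149 in G2IA (IgG), on the protein-coding scale. The highest and the lowest pair each held 1 antibody and 1 IgG library. On the log2 scale the fold change was -0.33 ± 0.58 (SE; limma, adjusted p = 1.0), and it was 0.16 without D2IA and 0.18 without G2IA. G2IA was the highest library for 12 of the 13 protein genes, and G1IA the lowest for 8.

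mt-Rnr2 on that scale had 575643 in D1IA and 371427 in D2IA (antibody, set 076), against 324895 in G1IA and 550269 in G2IA (IgG, set 076). On the log2 scale the fold change was 0.13 ± 0.64 (SE; limma, adjusted p = 1.0), and it was -0.19 without D1IA and -0.25 without G1IA. Over the 13 protein genes the median log2 fold change in set 076 was -0.11, with a range of -0.33 to 0.21, beside a median of 0 over all genes tested. Of the 37 members, 2 had both antibody libraries above both IgG libraries and 4 had both below, against 7.99% and 11.0% of all genes. On TPM as deposited these counts were 1 and 3, against 9.00% and 7.03% of all genes. The 1 protein gene below without overlap was mt-Atp8, at 6038 in D1IA and 6221 in D2IA (antibody), against 6249 in G1IA and 8033 in G2IA (IgG) on the protein-coding scale.

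Markers of other cell types differed between the libraries of set 076 as well, on the protein-coding scale. The 6 skeletal muscle markers summed to 4302 in D1IA and 314 in D2IA (antibody), against 93.2 in G1IA and 11.0 in G2IA (IgG), without overlap. All 6 had positive log2 fold changes (limma, 0 of 6 called and 5 at an unadjusted p under 0.05). The 5 heart muscle markers summed to 1067 in D1IA and 343 in D2IA (antibody), against 927 in G1IA and 170 in G2IA (IgG). The 4 brown fat markers summed to 8973 in D1IA and 4848 in D2IA (antibody), against 2662 in G1IA and 8516 in G2IA (IgG), so that D1IA and G2IA were the highest libraries. The same pair was highest for mt-Co1, but not for mt-Atp8 or mt-Nd4l, for which D2IA was above D1IA. The 3 white fat markers also had their highest sums in D1IA and G2IA, at 2157 and 2156. The 3 B and plasma cell markers summed to 30.2 in D1IA and 64.5 in D2IA (antibody), against 769 in G1IA and 1090.2 in G2IA (IgG), without overlap (limma, 0 of 3 called and 2 at an unadjusted p under 0.05). In set 045 C2IA had the lowest mt-Co1 level but a brown fat sum of 2052, near the highest of that set, 2166 in D1IA. The part of these cells and tissues in the mitochondrial levels was not tested. In bulk samples, a different number of cells of a type and a different amount of RNA per cell cannot be told apart.

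In set 045 the mitochondrial levels were higher in antibody libraries on the protein-coding scale, without passing the test. mt-Co1 had 433023 in D1IA and 247420 in D2IA (antibody), against 155027 in C1IA and 96550 in C2IA (IgG). All 4 values were in falling order from D1IA to C2IA, and the groups did not overlap. On the log2 scale the fold change was 1.42 ± 0.58 (SE; limma, adjusted p = 0.611). Without D1IA it was 1.02, and without D2IA it was 1.82.

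mt-Rnr2 had 16998800 in D1IA and 5382610 in D2IA (antibody, set 045), against 2960430 in C1IA and 3186650 in C2IA (IgG, set 045), on the protein-coding scale. Values above 1000000 arise because mitochondrial genes do not enter the total to which this scale is set. On the log2 scale the fold change was 1.64 ± 0.64 (SE; limma, adjusted p = 0.611), the most positive of the 35 tested members in set 045. Of these, 33 had a positive value, and the exceptions were mt-Tf (phenylalanine) and mt-Tg (glycine), with -1.998 ± 2.33 and -3.14 ± 2.11 (SE) on 0 to 4 reads per library of the set. Without 1 library the value of mt-Rnr2 changed in size: it was 0.81 without D1IA and 2.47 without D2IA. mt-Nd6 had a log2 fold change of 1.22 ± 0.52, mt-Tp of 1.56 ± 0.63 and mt-Tm, the methionine tRNA, of 1.35 ± 0.40 (SE; limma, adjusted p = 0.611, 0.611 and 0.564).

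The median log2 fold change of the 13 protein genes in set 045 was 1.27, with a range of 1.13 to 1.42, beside a median of -0.13 over all genes tested. Both antibody libraries lay above both IgG libraries for 24 of the 37 members, made up of all 13 protein genes, both rRNA genes and 9 tRNA genes. Of all genes, 14.2% did so. None of the 37 lay below without overlap, against 20.8% of all genes. On TPM as deposited the count fell to 9 above, of which 8 were protein genes, and 2 below, both tRNA genes, against 1.40% and 37.3% of all genes.

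The nuclear protein-coding share, by which the scale divides, also differed within set 045. It was 0.848% of TPM in D1IA and 1.76% in D2IA (antibody), against 1.70% in C1IA and 3.10% in C2IA (IgG). D1IA, with the lowest share, was the highest library for all 13 protein genes and both rRNA genes. On TPM as deposited the median log2 fold change of the 13 protein genes was 0.36, beside -0.36 over the 11468 genes that passed the filter there. Rescaling alone shifts all genes of a library equally. The filter kept fewer genes on TPM, and the 1 added before taking logs weighs more on low TPM values. The members' distance from the median gene can therefore not be compared between the scales. The part of the nuclear share in the result was not tested.

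Marker sums of several arterial cell types were also larger in the antibody libraries of set 045, on the same scale. The 5 smooth muscle markers summed to 888 in D1IA and 934 in D2IA (antibody), against 606 in C1IA and 522 in C2IA (IgG). The 4 endothelial markers summed to 681 in D1IA and 518 in D2IA (antibody), against 335 in C1IA and 413 in C2IA (IgG). The 4 fibroblast markers summed to 705 in D1IA and 887 in D2IA (antibody), against 560 in C1IA and 555 in C2IA (IgG), although 2 of the 4 had negative log2 fold changes. None of these sums overlapped between the treatments, and no single marker of the 3 lists was called (limma, 2 of 5 smooth muscle, 1 of 4 endothelial and 0 of 4 fibroblast markers at an unadjusted p under 0.05, beside 1452 of 18170 genes). Macrophage markers overlapped, with sums of 7028 in D1IA and 10481 in D2IA (antibody), against 7365 in C1IA and 3978 in C2IA (IgG). All 4 had positive log2 fold changes, with a median of 0.67, beside 0.66 for smooth muscle and 0.64 for endothelial markers. Brown fat markers overlapped too, at 2166 in D1IA and 377 in D2IA (antibody), against 283 in C1IA and 2052 in C2IA (IgG). Of these 4 markers, 2 had positive and 2 negative log2 fold changes. Other lists went the other way in set 045. All 5 heart muscle, all 3 white fat and all 3 B and plasma cell markers had negative log2 fold changes. The part of these cell types in the mitochondrial levels was not tested.

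The effects of the antibody in the sets were set against each other by an interaction term. The difference, set 076 minus set 045, was negative for all 13 protein genes with a median of -1.39 on the log2 scale, and for both rRNA genes. It was negative on TPM as deposited for 12 of the 13 protein genes, with a median of -0.42, beside 0.42 over the 11468 genes tested there. On the protein-coding scale adjusted p was 0.798 or more for every member (limma, interaction contrast). For mt-Co1 the difference was -1.75 ± 0.82 and for mt-Rnr2 -1.51 ± 0.91 (SE). Taken over both sets, the median log2 fold change of the 13 protein genes was 0.58 on the protein-coding scale and 0.16 on TPM. On the protein-coding scale that of mt-Co1 was 0.54 ± 0.41 and that of mt-Rnr2 was 0.88 ± 0.45 (SE; limma, adjusted p = 1.0 for each).

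**Figure D4:**
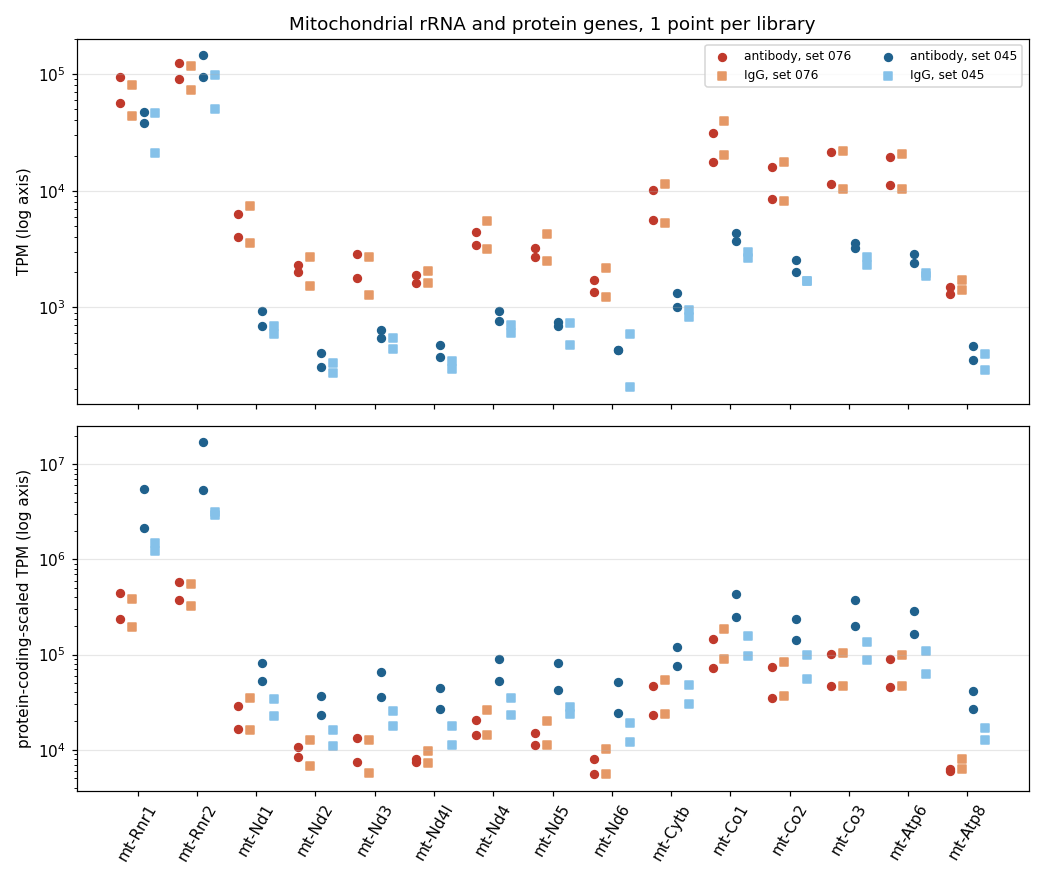
Levels of the 2 rRNA and 13 protein genes, 1 point per library, as TPM (upper panel) and as protein-coding-scaled TPM (lower panel), both on log axes. On TPM the protein genes are higher in all 4 libraries of set 076, while on the protein-coding scale set 045 is higher for the rRNA genes and its antibody libraries lie above its IgG libraries.

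The sets themselves differed in the level of mitochondrial RNA, and the direction depended on the scale. On TPM as deposited, 28 of the 37 members, all 13 protein genes and 15 tRNA genes among them, were higher in every library of set 076 than in any library of set 045, as were 80.7% of all genes. None was lower in this way, beside 0.0771% of all genes. On the protein-coding scale 19 members were lower in every library of set 076 than in any of set 045, beside 14.6% of all genes, and none was higher, beside 6.41%. mt-Co1 had 27119 ± 9977 TPM in set 076 and 3417 ± 763 TPM in set 045 (SD, n = 4 each). mt-Rnr2 was close, at 100723 ± 23774 TPM in set 076 and 97064 ± 38323 TPM in set 045 (SD, n = 4 each). On the protein-coding scale mt-Co1 had 123601 ± 51209 in set 076 and 233005 ± 147100 in set 045, and mt-Rnr2 had 455559 ± 125885 in set 076 and 7132130 ± 6667880 in set 045 (SD, n = 4 each).

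On the protein-coding scale 17 of the 35 tested members were called lower in set 076 than in set 045 and none higher (limma, adjusted p under 0.05). Of all genes tested, 6.91% were called, 4.77% lower and 2.15% higher. On TPM as deposited 29 of 33 tested members were called higher in set 076, beside 97.1% of all genes, and none lower, beside 0.105% (97.2% in either direction). The median log2 difference over all genes was -0.27 on the protein-coding scale and 2.17 on TPM. The protein genes had medians of -1.29 on the protein-coding scale and 2.44 on TPM, and the rRNA genes were below the median gene on both. The medians over all genes rest on 18170 genes on the protein-coding scale and 11468 on TPM. The 1 added before taking logs also weighs more on low TPM values. Distances of the protein genes from the median gene can therefore not be compared between the scales.

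Both rRNA genes were among the 17. The log2 difference of mt-Rnr2 was -3.62 ± 0.45 (SE; limma, adjusted p = 0.0133) and that of mt-Rnr1 was -2.87 ± 0.44 (SE; adjusted p = 0.0231). On TPM the differences were 0.12 for mt-Rnr2 and 0.87 for mt-Rnr1, turned in direction but still the lowest of the rRNA and protein genes. The 5 protein genes called were mt-Nd3 at -1.81, mt-Atp8 at -1.74, mt-Nd6 at -1.71, mt-Nd5 at -1.48 and mt-Nd4l at -1.46 (limma, adjusted p = 0.0220 to 0.0471). On TPM they were higher in set 076, by 1.93, 1.98, 2.02, 2.25 and 2.27 in the same order. mt-Co1 at -0.79 and mt-Cytb at -0.82 did not pass (limma, adjusted p = 0.244 and 0.231), and on TPM they stood at 2.94 and 2.91.

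Of the tRNA genes, 10 were called lower in set 076 on the protein-coding scale. They were mt-Ty at -2.38, mt-Ts2 (serine) at -2.37, mt-Tm at -2.34, mt-Tl1 (leucine) at -1.80, and mt-Tl2, mt-Tq (glutamine), mt-Ta, mt-Tc, mt-Tn (asparagine) and mt-Th (histidine), between -1.87 and -1.40 (limma, adjusted p = 0.0126 to 0.0498). mt-Tp, the most abundant tRNA, stood at -0.79 ± 0.45 (SE; limma, adjusted p = 0.283). On TPM the named values were positive, at 1.34 for mt-Ty, 1.33 for mt-Ts2, 1.30 for mt-Tm, 1.78 for mt-Tl1 and 2.93 for mt-Tp.

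The number of members called between the sets rested on single libraries. It was 17 without D2IA of set 045, 9 without D1IA of set 045 and 9 without D2IA of set 076. It was 1 without C1IA of set 045, leaving mt-Ty, and 0 without C2IA of set 045 or without D1IA, G1IA or G2IA of set 076. The values themselves moved less: mt-Rnr2 lay between -4.03 and -3.20 and mt-Rnr1 between -3.20 and -2.53 over the 8 omissions. Marker lists also differed between the sets on the protein-coding scale. Called higher in set 076 were 4 of 5 smooth muscle, 2 of 5 heart muscle, 2 of 6 skeletal muscle, 2 of 4 fibroblast, 1 of 4 brown fat and 1 of 3 B and plasma cell markers, and 0 of the endothelial, macrophage and white fat markers (limma). Heart muscle markers (5 genes) summed to 170 to 1067 in set 076 and 1.34 to 216 in set 045, with 2 to 4 of them at 0 in 3 libraries of set 045. Fibroblast markers (4 genes) summed to 2189 to 5262 in set 076 and 555 to 887 in set 045, and brown fat markers (4 genes) to 2662 to 8973 in set 076 and 283 to 2166 in set 045. Their part in the mitochondrial result was not tested, and the sets' unknown meaning, tissue makeup and library preparation cannot be told apart.

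**Figure D5:**
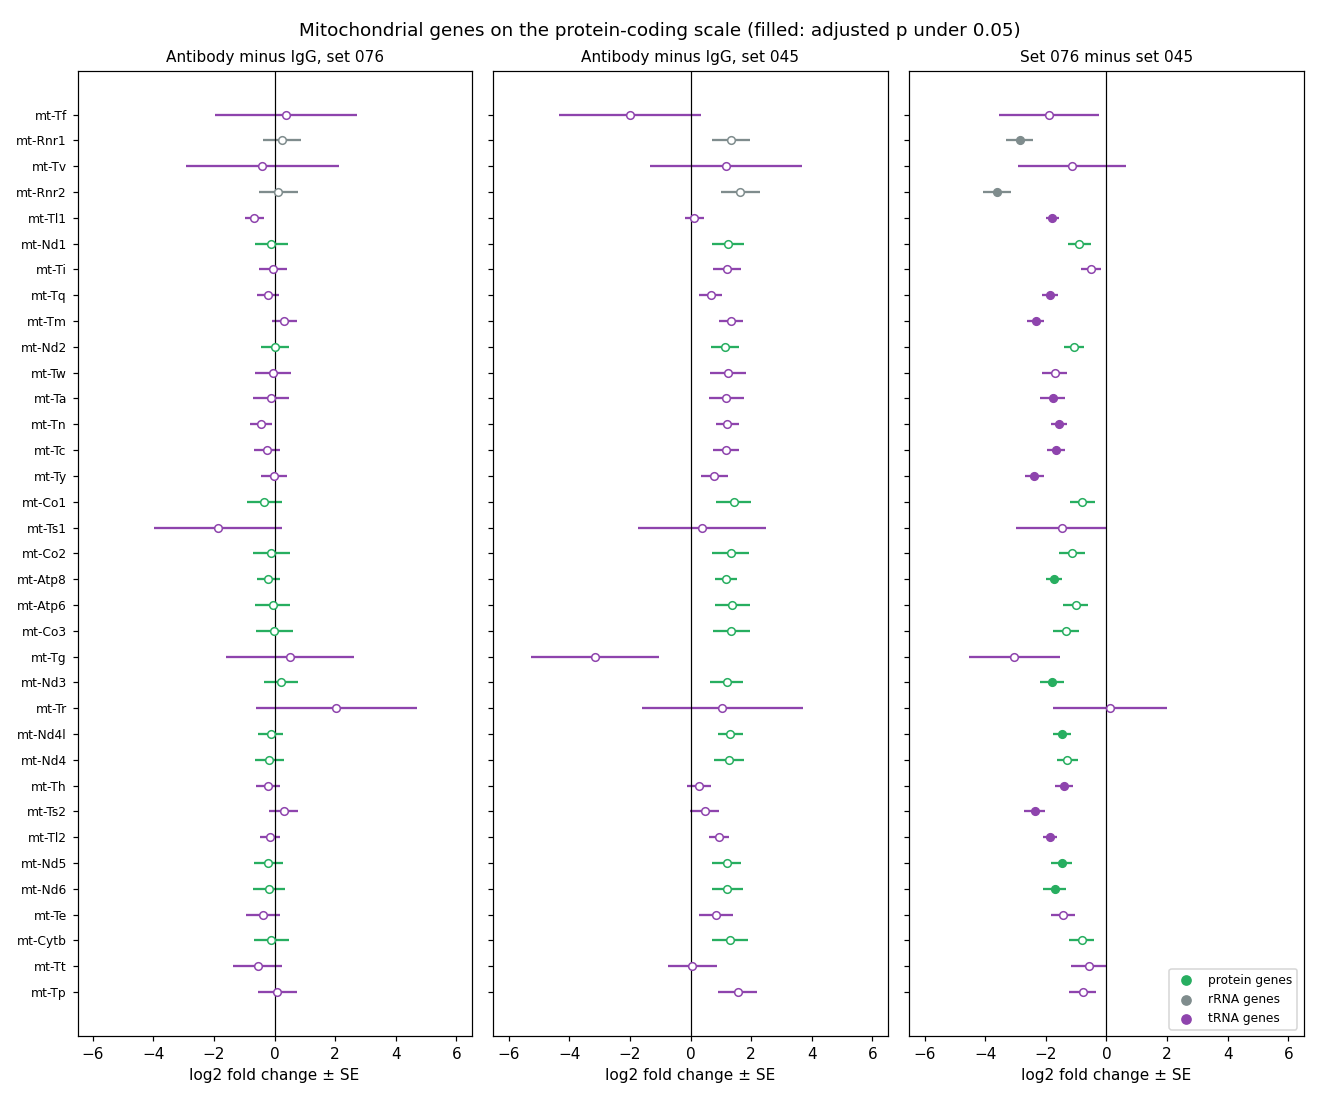
Log2 fold changes ± SE (limma, protein-coding scale) of the 35 tested members in genome order, for antibody minus IgG in set 076, antibody minus IgG in set 045, and set 076 minus set 045. Filled points pass an adjusted p of 0.05 and occur in the third panel alone, where 17 members lie below 0; on TPM as deposited the called members of that panel lie above 0.

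Nuclear genes that serve mitochondrial transcription and RNA processing showed no called treatment effect. Of 33 listed genes 32 were tested, and 0 were called in set 076, in set 045 or over both sets (limma), with 0, 1 and 0 at an unadjusted p under 0.05. Between the sets 1 was called higher and 1 lower, near the background of 2.15% and 4.77%. Hsd17b10, a subunit of the mitochondrial RNase P that cuts the 5′ ends of the tRNAs, was higher in set 076, with a log2 difference of 2.24 ± 0.49 (SE; limma, adjusted p = 0.0446). Its protein-coding-scaled levels were 728 in D1IA and 381 in D2IA (antibody, set 076), 268 in G1IA and 688 in G2IA (IgG, set 076), 193 in D1IA and 81.0 in D2IA (antibody, set 045), and 48.3 in C1IA and 131 in C2IA (IgG, set 045). Polrmt, the mitochondrial RNA polymerase, was lower in set 076, with a log2 difference of -1.08 ± 0.24 (SE; limma, adjusted p = 0.0463), with 14.9 to 18.4 in set 076 and 25.7 to 46.7 in set 045. Polg, the catalytic subunit of the mitochondrial DNA polymerase, and Tfb2m, a transcription initiation factor, did not pass at -0.93 and 0.94 (limma, adjusted p = 0.0533 and 0.0698).

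Of the 19 listed mitochondrial aminoacyl-tRNA synthetases, which charge the tRNAs, all were tested and none was called for treatment in set 076, in set 045 or over both sets (limma, 0 at an unadjusted p under 0.05 in each). Between the sets 1 of the 19 was called, lower in set 076, near the background of 4.77% of all genes called lower. The gene called was Lars2, the leucine enzyme, at -3.98 ± 0.87 (SE; limma, adjusted p = 0.0440). It had 10.7 in D1IA and 10.7 in D2IA (antibody, set 076), against 9.09 in G1IA and 11.6 in G2IA (IgG, set 076), on the protein-coding scale. In set 045 it had 99.9 in D1IA and 457 in D2IA (antibody), against 613 in C1IA and 37.1 in C2IA (IgG), a spread that follows neither treatment nor the nuclear share. The order in set 045 was that of the Rn7s1 share of TPM, at 72.8% in C1IA, 65.9% in D2IA, 63.6% in D1IA and 62.7% in C2IA. Lars2 is given here on the protein-coding scale and Rn7s1 on TPM. Set 076 did not share the order, as G1IA had its highest Rn7s1 share, 43.0%, and its lowest Lars2 level. A relation between Lars2 and Rn7s1 was not tested. Rars2 at 0.86, Aars2 at -1.01 and Hars2 at -0.64, the arginine, alanine and histidine enzymes, did not pass (limma, adjusted p = 0.0828, 0.0851 and 0.0920).

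Nuclear copies of mitochondrial sequence are a source of shared reads. 23 nuclear genes of the annotation shared at least 1 stretch of 31 bases with 14 members, and 20 of them were in the deposited table. 10 of those were at 0 in all 8 libraries. Summed, the copies had 3.17 to 20.5 TPM per library, and the highest single value, of Gm28438, a copy of mt-Nd3, was 9.34 TPM. mt-Nd3 itself had at least 436 TPM in every library. Gm28438 had 2.36 in D1IA and 1.32 in D2IA (antibody, set 076), against 41.8 in G1IA and 39.0 in G2IA (IgG, set 076), on the protein-coding scale, and no library of set 045 had a read on it. Gm10222, a copy of mt-Nd4l, was listed at 0 in both antibody libraries of set 076, against 7.91 in G1IA and 12.9 in G2IA (IgG). Of the 3 listed copies that were tested, none was called for treatment in set 076, in set 045 or over both sets (limma), with 2, 0 and 2 at an unadjusted p under 0.05, beside 163, 1452 and 495 of all 18170 genes. How the authors' counting assigned reads that fit a gene and its copy was not given in the sources used here, so the levels of these copies are uncertain.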

How the data were processed

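The table deposited by the authors gave TPM for 49585 mouse Ensembl genes in 8 libraries, 1 column each, and every column summed to 1000000 over all listed genes. RNA was extracted with TRIZOL, 100 ng was depleted of rRNA, and libraries were made with a strand-keeping kit, per the labels' protocols. The aligner, the counting tool and the annotation were not given in the sources used here. The build was hg19, a human build, per the submitters' processing notes, so no coordinates are given. Gene types, lengths and sequences came from GENCODE M21, which held 49326 of the identifiers.

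Column names give treatment and set but not the labels' sample numbers, so each column was a replicate of its group. TPM times length fell on whole multiples of 1 read for all 25386 genes above 0 (100%). The tolerance was 0.01 reads or, for large counts, a small fraction of the count, so large counts were checked less closely. For 5568 genes the length was itself derived from the steps, so their fit does not check the counts. The recovered counts served for depth and limma-voom, and not for the main test.

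TPM was rescaled to the nuclear protein-coding total (21721 genes). limma 3.58.1 (R 4.3.3) was fitted to log2(value + 1) with a trended, robust variance, 4 groups (treatment by set), mean at least 1, two-sided, Benjamini-Hochberg over 18170 genes, threshold 0.05, 4 residual degrees of freedom. A pseudocount understates changes of low genes. The sets share 1 estimate of spread although their depth on nuclear genes differs. The fit was tested on simulated data, where the contrasts in set 045 and over both sets drew more false calls than the threshold allows. Alternatives were TPM as deposited, trimmed-mean scaling, a pseudocount of 0.1, no filter, no trend, 1 set alone, no set term, voom and leaving out each library.

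Members and lists were chosen with earlier results of these data known. All mitochondrial protein and rRNA genes are named, tRNA genes past the threshold or among the 6 of highest mean, and up to 4 genes of smallest p per nuclear list. mt-Td, mt-Tk, mt-Ts1 and mt-Tv were named for their low values.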

Additional observations from a re-analysis of the deposited data

Results flagged for a closer look

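Of 82 groups of 4 values examined (members on the protein-coding scale and ratios of members, within a treatment), 8 held a library far from the other 3 of its treatment. The rule's nominal rate of about 1 in 20 does not apply here, since each group pooled 2 unlike sets. A group with a single value above 0, as for mt-Ts1, mt-Td and mt-Tk in antibody libraries, is always flagged. The count of 8 is therefore a description only. In antibody libraries, D2IA of set 045 stood above the others for mt-Tf at 144, mt-Tv at 106 and mt-Ts1 at 35.4, levels that rest on 4, 3 and 1 reads. D1IA of set 045 stood above the others for mt-Tr at 153, resting on 2 reads, and for mt-Tt, the threonine tRNA, at 1712 against 256 to 395, resting on 22 reads. The single reads of mt-Td in D1IA (5.81) and of mt-Tk in D2IA (6.998), both of set 076, were the other such antibody values. In IgG libraries, C2IA of set 045 had mt-Tc at 2101, resting on 98 reads, against 720 to 949 in the others.

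The 37 members were also examined for opposite orders in the sets. For mt-Tc and mt-Atp8 both antibody libraries lay below both IgG libraries in set 076 and above them in set 045. On the protein-coding scale 4 of the 37 lay below in set 076 and 24 above in set 045. The share of all genes with both was not counted, so the pattern is a description only. For mt-Atp8 the gap in set 076 was small, with 6221 in D2IA (antibody) against 6249 in G1IA (IgG). The log2 fold change of mt-Tc was -0.25 in set 076 and 1.17 in set 045, a difference of -1.42. That of mt-Atp8 was -0.21 in set 076 and 1.17 in set 045, a difference of -1.38. The interaction contrast of limma gave an adjusted p of 0.798 for both, so neither difference passed the threshold.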

How the results depend on the processing

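No mitochondrial gene passed the threshold in any treatment comparison under any alternative or omission. Over all genes, treatment calls over both sets numbered 0, against 53 on TPM as deposited, 7 with trimmed-mean scaling and 3 with no trend. Treatment calls in set 076 numbered 2, against 78 on TPM, 10 with trimmed-mean scaling, 0 with a pseudocount of 0.1, 7 with no trend, 9 with set 076 alone and 0 with voom. In set 045 they numbered 0, against 1 with the pseudocount of 0.1 and 7 with no trend, and for the difference between the sets' effects 0, against 134 on TPM, 6 with trimmed-mean scaling and 2 with no trend. Between the sets, 1256 genes were called (390 higher and 866 lower in set 076), against 11150 on TPM (11138 and 12), 2024 with trimmed-mean scaling (1477 and 547), 359 with no filter and 408 with no trend. Of those, 17 were mitochondrial, against 29 on TPM, 9 with trimmed-mean scaling, 10 with no filter, 9 with no trend and 11 with voom. Leaving out 1 library gave 0 to 6 treatment calls over both sets, 0 to 4 in set 076, 0 to 65 in set 045, 0 to 5 for the difference, 52 to 985 between the sets, and 0 to 17 mitochondrial genes between the sets. On TPM the set differences turned positive, at 0.87 for mt-Rnr1, 0.12 for mt-Rnr2, 1.93 for mt-Nd3, 2.25 for mt-Nd5, 2.02 for mt-Nd6, 1.98 for mt-Atp8, 2.27 for mt-Nd4l, 2.94 for mt-Co1, 2.91 for mt-Cytb, 2.93 for mt-Tp, 1.34 for mt-Ty, 1.78 for mt-Tl1, 1.30 for mt-Tm and 1.33 for mt-Ts2, since TPM holds no correction for the nuclear share. In set 076 the treatment value of mt-Co1 ranged over the 8 omissions from -0.85 to 0.18 (0.16 without D2IA, 0.18 without G2IA), and that of mt-Rnr2 from -0.25 to 0.51 (-0.19 without D1IA, -0.25 without G1IA). Counted as shares of reads, the mitochondrial total of set 076 was 68.6% rRNA, 31.3% protein and 0.0457% tRNA genes, and that of set 045 was 91.8% rRNA and 0.0180% tRNA genes, since TPM divides by length. Of the single-gene values recomputed, 235 kept direction and side of the threshold, 78 kept direction and lost the call, and the 18 given above changed sign. No paired analysis was possible because the columns do not carry the labels' replicate numbers. Depth limits the 8 tRNA genes with at most 5 reads in any library.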
